A study of Mus with 8 samples.

Results

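Lin-Kit+ cells (LK), the blood progenitors that lack mature lineage markers and carry the stem cell factor receptor Kit, were compared between Ifnar-/- and Ifnar+/- mice 14 days old (P14). The cells are all barcodes of these 2 libraries with at least 7500 gene UMI (unique molecular identifiers, each 1 captured RNA molecule) and at most 10% of them mitochondrial. This rule kept 3885 Ifnar-/- and 2411 Ifnar+/- cells, 6296 of the 35549 cells it kept in the 8 libraries of the series. The series holds LK and Lin-Sca1+Kit+ (LSK) cells at birth (P0) and at P14, in each genotype, with 1 library for each combination, assayed by CITE-seq, which reads RNA and antibody tags from the same single cells. The Ifnar+/- mice carry 1 intact copy and serve as the control, so no group here is wild type. The labels give no strain, organ, treatment or number of mice, and do not describe the Ifnar allele. Each library held cells with Y-linked UMI and cells with Xist UMI, so each drew on mice of both sexes. With 1 library per group, genotype cannot be told apart from library, litter or sorting day: no p-value is given, and the 95% intervals below cover counting error only.

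Type I interferons are cytokines that signal through a receptor of the chains IFNAR1 and IFNAR2. The receptor activates the kinases JAK1 and TYK2, which phosphorylate STAT proteins. With IRF9 these form a complex that enters the nucleus and switches on interferon-stimulated genes, a set of sensors, antiviral enzymes, GTPases and antigen presentation genes. Several of its targets, among them Irf9 and Irf7, encode parts of the pathway itself. Blood progenitors carry this receptor, and interferon is known to act on stem and progenitor cells as well as on mature immune cells.

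The Ifnar-/- cells held 150009925 gene UMI and the Ifnar+/- cells 100486590, with medians of 34339 and 38090 UMI and 5696 and 5993 genes per cell. The mitochondrial share was 3.59% and 3.63%. The 2 libraries shared 6 cell barcodes and shared 1 to 10 with each of the other 6 libraries. Kit RNA was at 170 in Ifnar-/- and 195 in Ifnar+/- cells, in counts scaled to the gene UMI of the library (CPM), and the median Kit (CD117) tag count was 793 and 953 per cell, so the sorted marker was present in both. Of the T and NK cell markers Cd3e and Ncr1 were at 0 UMI in both libraries, Cd3d, Trac and Klrb1c had 4 to 16 UMI, and Trbc1 had 887 UMI in Ifnar-/- and 389 in Ifnar+/- cells. Of the hepatocyte markers Alb and Ttr were at 0 and Ahsg at 1 and 4, while Afp had 478 and 346 UMI and Apoa2 131 and 108. The libraries differed in sex: of the cells that carried UMI of 1 sex alone, Y-linked genes marked 34.7% (33.1 to 36.3) in Ifnar-/- and 63.7% (61.6 to 65.8) in Ifnar+/-. For this reason, ratios were also taken within cells with Y-linked UMI alone and within cells with Xist UMI alone. Cells with UMI of both kinds, 465 in Ifnar-/- and 290 in Ifnar+/-, entered neither, nor did the 44 and 36 with none. A further reading weighted the cells so that each class had the same share in both libraries, the mean of its 2 shares (class-weighted).

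The receptor and kinase genes themselves stood close together. Ifnar1 (ENSMUSG00000022967, chr16:91485032-91510523 of mm10, with coordinates from RefSeq) was counted at 20.1 CPM (19.4 to 20.8) in Ifnar-/- and 23.5 CPM (22.6 to 24.5) in Ifnar+/- cells, a log2 ratio of -0.22. All log2 ratios are Ifnar-/- minus Ifnar+/-, on CPM with 0.5 counts added to the UMI. Ifnar2 stood at 65 and 72.5 CPM (log2 -0.16), Jak1 at 105 and 100 CPM (0.06) and Tyk2 at 14.3 and 14.5 CPM (-0.02). Reads of 3′ libraries come from the end of a transcript, and where the allele is disrupted is not given, so Ifnar1 RNA does not check the genotype label. The receptor chains for interferon gamma were also level, with Ifngr1 at 164 CPM in both. None of the 10 interferon ligand genes looked for reached 20 UMI in either library. The 10 genes next to Ifnar1 with at least 20 UMI had a median log2 ratio of -0.11, from -0.36 to 0.69; the highest was the endocytic scaffold Itsn1.

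Interferon-stimulated genes formed the largest group among the genes that were lower in Ifnar-/- cells. Of 13114 genes with at least 50 UMI in 1 or both libraries, 66 (0.503%) were at least 2-fold lower in Ifnar-/- and 26 (0.198%) at least 2-fold higher. Over all of them the log2 ratio had a median of -0.03, with 5th and 95th percentiles of -0.43 and 0.24. The interferon list held 25 of the 66; it joins transcription factors, ISG15 conjugation, sensors, antiviral effectors, GTPases and other interferon-stimulated genes. A further 4 were on the list of MHC class I presentation. Another 11 were interferon-related genes on neither list (such as Ms4a4b, Ms4a4c, Ifi206 and H2-T24) that were gathered after their values were seen. That leaves 26 on none of these. Of all 13 genes so gathered, 11 were at least 2-fold lower in all cells and 7 with the classes weighted. Ms4a4b then stood at -0.58 and Ms4a4c, a leading gene of the cluster named monocyte-like below, at -0.69. None of the 26 higher genes was on the interferon list. The fold also widens at low counts: among 9468 genes with at least 5 CPM in 1 or both libraries, 14 were at least 2-fold lower and 1 was at least 2-fold higher.

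Of the 93 interferon list genes in the files, 79 had at least 50 UMI in 1 or both libraries, and 14 did not. Of the 79, 68 reached that count in both libraries and 11 through the Ifnar+/- library alone, which had to be lower. Over the 68, 65 were lower in Ifnar-/-, 15 of them at least 2-fold, with a median log2 ratio of -0.48. Over all 91 with any UMI, 87 were lower. Summed over the list, the level was 1762.5 CPM in Ifnar-/- against 2229.4 CPM in Ifnar+/- cells. For the groups below, genes with at least 20 UMI were read: 85 of the list, with a median of -0.62, against a median of -0.03 over 14473 genes of all kinds, of which 57.2% were lower. At that minimum 29 of the 85 were at least 2-fold lower, against 0.953% of all genes, with 0 higher by that factor. In both libraries 78 of the 85 reached 20 UMI, and 23 of these were at least 2-fold lower, against 0.613% of all genes that reached it in both. The list members were chosen with earlier results of these data known, so these counts describe them and are not an independent check.

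**Figure D1:**
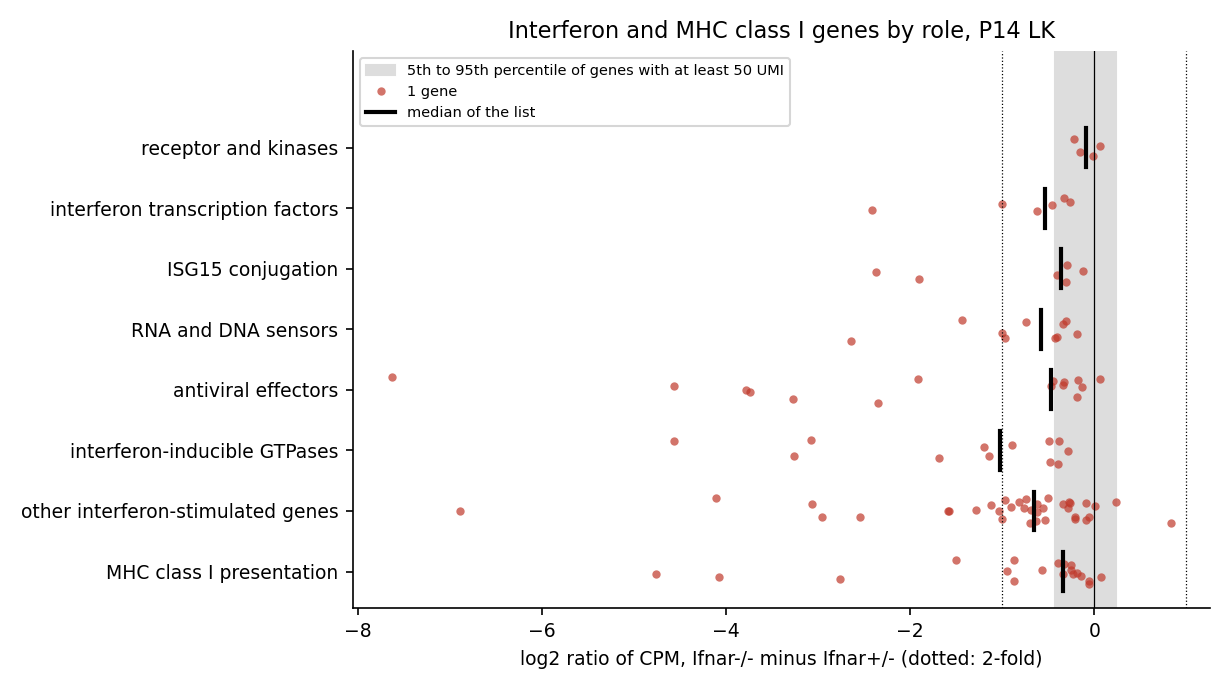
Log2 ratio of CPM (Ifnar-/- minus Ifnar+/-) of each gene with at least 20 UMI in P14 LK cells, 1 point per gene, in rows by role, with the median of each row as a bar and the range from the 5th to the 95th percentile of all genes with at least 50 UMI shaded. The interferon groups lie left of 0, with medians of -1.02 for the GTPases (-0.49 without the 3 read through the Ifnar+/- library alone) and -0.36 for ISG15 conjugation, and the receptor and kinase genes lie near 0.

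Among the transcription factors of the pathway, the 6 genes read were all lower, with a median of -0.54. Irf7, the factor that amplifies interferon production, stood at 0.82 CPM (0.681 to 0.978) in Ifnar-/- and 4.39 CPM (3.99 to 4.82) in Ifnar+/- cells (log2 -2.42). Irf9, the DNA-binding part of the STAT complex, stood at 10.8 and 21.6 CPM and so just missed the 2-fold limit. Stat2 stood at 7.59 and 9.15 CPM (-0.27) and Irf1 at 15.3 and 19.2 CPM (-0.33). Irf7, at 5.35-fold lower, was thus furthest apart and Stat2 least.

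The genes of ISG15 conjugation attach the ubiquitin-like protein ISG15 to other proteins or remove it. Isg15 itself had 174 UMI in Ifnar-/- and 602 in Ifnar+/- cells, or 1.16 CPM (0.994 to 1.35) against 5.99 CPM (5.52 to 6.49). Usp18, the protease that removes ISG15 and restrains the receptor, stood at 0.44 and 1.65 CPM. All 6 genes of the group were lower, and these 2 were at least 2-fold lower (log2 -2.37 and -1.90).

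All 10 sensor genes read were lower, with a median of -0.58. Dhx58, a regulator of the RNA sensors, stood at 1.9 CPM in Ifnar-/- against 5.17 CPM in Ifnar+/- cells (-1.44). The RNA sensors Ddx58 (RIG-I) and Ifih1 (MDA5) were less far apart, at 6.83 and 11.4 CPM (-0.74) and at 8.27 and 11 CPM (-0.41). Zbp1, a sensor of Z-form nucleic acid, was scarce, with 20 UMI in Ifnar-/- and 85 in Ifnar+/- cells (-2.64). The RNA-activated kinase Eif2ak2 was the more abundant member and differed little, at 32.3 and 40 CPM (-0.31).

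Among the antiviral effectors the scarce genes stood furthest apart. The Oas genes make the messenger that activates RNase L. Oas2 had 0 UMI in Ifnar-/- and 66 in Ifnar+/- cells, which is at least 32.8-fold lower when 3 counts are taken for the 0. Oas1a had 20 and 325 UMI, or 0.133 CPM (0.0814 to 0.206) and 3.23 CPM (2.89 to 3.61), a 24.3-fold lower level. Oas3 had 36 and 235 UMI (-3.27), and the related Oasl1 24 and 225 (-3.78) and Oasl2 223 and 565 (-1.92). The copies of the Oas family are alike in sequence, so how reads were assigned among them could shift the single values. Ifit1, which binds viral RNA caps, had 24 and 219 UMI (-3.74). Against these stood the interferon-induced membrane proteins: Ifitm3 was at 117 CPM in Ifnar-/- against 160 CPM in Ifnar+/- cells (-0.45), while Ifitm1 was at 179 and 172 CPM (0.06). Bst2, the tether that holds budding viruses, was at 73.2 and 92.6 CPM (-0.34). In all, 14 of the 15 effectors read were lower and 7 of them at least 2-fold; without Oas2, read through the Ifnar+/- library alone, these were 13 of 14 and 6.

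The interferon-inducible GTPases, which attack the membranes around intracellular pathogens, had a median of -1.02 over the 12 genes read, all lower. Of these, 3 reached 20 UMI through the Ifnar+/- library alone and had to be lower, and over the other 9, all lower, the median was -0.49. Tgtp2 stood at 2.04 CPM in Ifnar-/- against 6.61 CPM in Ifnar+/- cells (-1.69), and Iigp1 had 8 and 135 UMI (-4.57). The more abundant Irgm1 stood at 20.1 and 26.4 CPM (-0.39) and Gbp7 at 31.8 and 39 CPM (-0.29).

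The furthest apart of the genes above 5 CPM was Rtp4, a chaperone of membrane receptors and an interferon-stimulated gene, with 68 UMI in Ifnar-/- and 794 in Ifnar+/- cells. Its level was 0.453 CPM (0.352 to 0.575) against 7.9 CPM (7.36 to 8.47), 17.4-fold lower. Ifi27l2a followed, at 1.07 and 8.98 CPM and 8.42-fold lower, and then Ifi27, at 6.75 CPM (6.34 to 7.18) and 39.6 CPM (38.4 to 40.9) and 5.87-fold lower. Both encode small membrane proteins induced by interferon, and their RefSeq genes overlap on chromosome 12. Counting by strand is not stated in the sources used here, so part of the counts of Ifi27 and Ifi27l2a could belong to the other. Slfn8, of the Schlafen family, stood at 2.86 and 8.55 CPM (-1.58) and Xaf1, a pro-apoptotic factor, at 6.38 and 13.1 CPM (-1.04). Ifi44, a marker of the interferon response, had 1 UMI in Ifnar-/- and 119 in Ifnar+/- cells. Within cells with Y-linked UMI alone the ratio of Rtp4 was -4.45 and within Xist cells -4.07, and Ifi27 gave -2.55 and -2.48.

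A few list members were not lower. Lap3, a cytosolic aminopeptidase, stood at 91.4 CPM in Ifnar-/- against 77.2 CPM in Ifnar+/- cells (0.24), and Daxx, a chaperone of histone H3.3, at 28.7 and 28.5 CPM (0.01). Phf11d was higher at 0.83 but rested on 30 and 11 UMI. With Ifitm1 these were the 4 of 85 on the upper side.

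Genes of MHC class I presentation, which show peptides from inside the cell to T cells, were lower as well. Their summed level was 1722.3 CPM in Ifnar-/- against 2383.3 CPM in Ifnar+/- cells. B2m, the light chain of every class I molecule, stood at 229 CPM (226 to 231) in Ifnar-/- and 442 CPM (438 to 446) in Ifnar+/- cells, 1.93-fold lower. The classical heavy chains H2-K1 and H2-D1 stood at 171 and 313 CPM and at 170 and 312 CPM (both -0.87). The non-classical heavy chain H2-Q4 was 2.82-fold lower, at 7.47 CPM against 21.1 CPM, and H2-Q7 had 12 and 227 UMI (-4.76). The H2-Q genes are near copies of each other, so how reads were assigned among them could shift the single values. Nlrc5, the transactivator of class I genes, had 51 and 234 UMI (-2.76). Tap1, which carries peptides into the endoplasmic reticulum, stood at 29.3 and 43.3 CPM (-0.57), while its partner Tap2 stood at 65.2 and 67.9 CPM (-0.06). The immunoproteasome subunits were closer, with Psmb9 at -0.33, Psmb8 at -0.15 and Psmb10 at 0.07. Of the 19 genes, all with at least 50 UMI in 1 or both libraries, 18 were lower and 4 at least 2-fold, with a median of -0.34. H2-Q6 and H2-Q7 reached that count through the Ifnar+/- library alone and so had to be lower; of the other 17 genes, 16 were lower, 2 of them at least 2-fold, with a median of -0.33. The direction of the 7 MHC class II genes changed with the cells read. Their median was -0.11 with 6 lower in all cells, 0.05 with 2 lower when the classes were weighted, -0.30 with 6 lower in cells with Y-linked UMI and 0.43 with 1 lower in cells with Xist UMI.

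**Figure D2:**
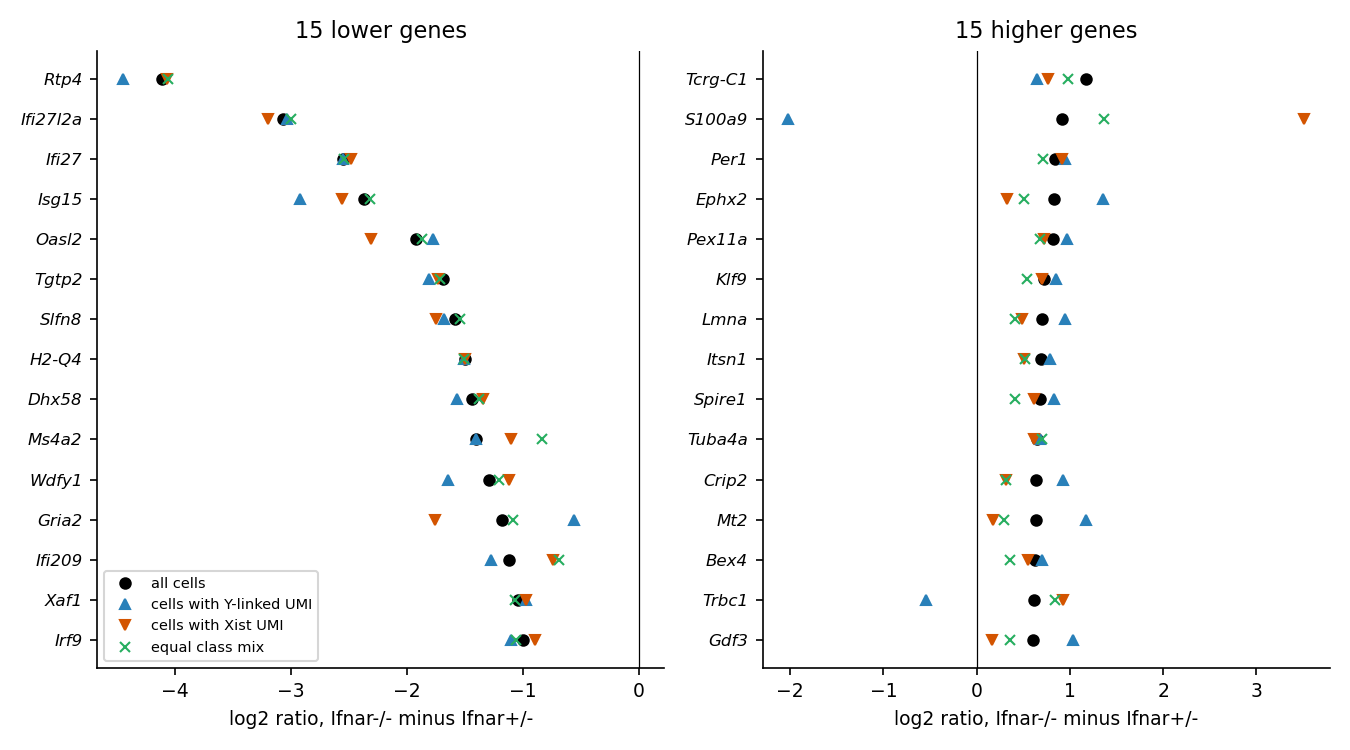
Log2 ratios of the 15 lower (left panel) and 15 higher (right panel) genes with the largest differences above 5 CPM, in all cells (circles), with an equal class mix (crosses), in cells with Y-linked UMI alone (upward triangles) and in cells with Xist UMI alone (downward triangles). The lower genes stayed below 0 in each reading, at most -0.56 for Gria2 in the Y-linked cells, while S100a9 (-2.02) and Trbc1 (-0.54) among the higher genes fell below 0 in the Y-linked cells.

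Not all of the lower genes are known interferon targets. Wdfy1, an adaptor of endosomal Toll-like receptors (chr1:79702262-79776143), stood at 9.19 CPM (8.71 to 9.68) in Ifnar-/- and 22.5 CPM (21.6 to 23.4) in Ifnar+/- cells (-1.29). It was lower in each of the 6 named cell classes read, from -0.77 in the stem-like to -1.57 in the erythroid-like cells on the log2 scale. Ms4a2, a subunit of the IgE receptor of mast cells and basophils, stood at 6.67 and 17.6 CPM (-1.40), and at -0.83 with the classes weighted. Basophil and mast cell markers in sum stood at 185 CPM in Ifnar-/- against 289 CPM in Ifnar+/- cells, and their part in the Ms4a2 ratio beyond the class weighting was not tested. Gria2, a glutamate receptor subunit that was among the leading genes of the lymphoid-primed clusters, stood at 2.72 and 6.15 CPM (-1.18). The complement genes C1qa, C1qb and C1qc, made by macrophages, had 40, 39 and 27 UMI in Ifnar-/- and 56, 74 and 53 in Ifnar+/- cells, and they are 3 of the 6 macrophage markers. Of the other 3, Adgre1 had 86 and 97 UMI (-0.75), Vcam1 90 and 85 (-0.50) and Cd5l 2 in both libraries. Ly6a encodes the Sca1 antigen that the LSK sort is named by and is an interferon-responsive gene. Its level was 4.45 CPM (4.12 to 4.8) in Ifnar-/- and 8.9 CPM (8.32 to 9.5) in Ifnar+/- cells, again just short of the 2-fold limit.

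Higher genes were fewer and closer to their controls. Above 5 CPM, Tcrg-C1, a constant segment of the T cell receptor gamma locus that was among the leading genes of an erythroid cluster, stood furthest apart, at 5.47 CPM (5.1 to 5.86) in Ifnar-/- and 2.43 CPM (2.13 to 2.75) in Ifnar+/- cells (1.17). The ratio of Tcrg-C1 was 0.98 with the classes weighted, 0.65 in Y-linked and 0.77 in Xist cells, short of 2-fold in each. Per1, a circadian clock repressor, stood at 17.1 and 9.54 CPM (0.84). Klf9, a transcription factor induced by glucocorticoids, stood at 39.8 and 24.2 CPM (0.72), and Lmna, which encodes the nuclear lamins A and C, at 29.3 and 18 CPM (0.70). Pex11a, which divides peroxisomes, stood at 9.36 and 5.3 CPM (0.82). The most abundant of the 15 was Tuba4a, an alpha-tubulin (chr1:75214972-75221261), at 230 CPM (228 to 233) in Ifnar-/- and 147 CPM (145 to 150) in Ifnar+/- cells (0.65). Tuba4a was higher in Ifnar-/- in each class read, by 0.58 in the stem-like and 0.76 in the lymphoid-primed cells. Mt2, a metallothionein that binds zinc, stood at 75.1 and 48.3 CPM (0.64), and at 0.29 with the classes weighted.

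Some of the higher values came from a handful of cells. S100a9, a calcium-binding protein of mature neutrophils, stood at 22.5 CPM in Ifnar-/- against 11.9 CPM in Ifnar+/- cells, but 83.8% of its Ifnar-/- UMI were in 5 cells, and the ratio was -2.02 in Y-linked and 3.51 in Xist cells. Epx, the eosinophil peroxidase, had 235 and 34 UMI, with 95.3% of the Ifnar-/- UMI in 5 cells. Of the 26 genes at least 2-fold higher, 10 had at least 50% of their Ifnar-/- UMI in 5 cells. Of the 66 genes at least 2-fold lower, 7 had at least 50% of their Ifnar+/- UMI in 5 cells, and none of the 7 was on the interferon or MHC class I list, though Ifi205 among them is interferon-related.

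To ask which progenitors the libraries held, the 6296 cells were clustered together without the interferon, MHC, sex, mitochondrial and cell cycle genes, and the 19 clusters were named from marker genes. The names are rebuilt from RNA and are not the authors' annotation. The class shares are given as percent of the cells of a library, with exact Clopper-Pearson intervals. Erythroid-like progenitors were 22.3% (21 to 23.6) of Ifnar-/- and 17% (15.5 to 18.5) of Ifnar+/- cells. Of their 4 clusters, 1 was led by alpha-globin genes and 1 by the metallothioneins Mt1 and Mt2 among others, while Car1, a carbonic anhydrase of red cells, was a leading gene in 2. Monocyte-like progenitors were 5.05% (4.38 to 5.78) and 8% (6.95 to 9.16), and neutrophil-like progenitors 7.08% (6.29 to 7.93) and 9.62% (8.47 to 10.9). Basophil- and mast-like progenitors were 2.47% (2.01 to 3.01) and 3.9% (3.16 to 4.75). For these 4 classes the counting intervals did not overlap, with the erythroid share above and the myeloid shares below the control in Ifnar-/- cells.

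The other classes differed less. Stem-like cells, named HSC-like here from Procr, Mecom and Hlf, were 10.2% (9.31 to 11.2) of Ifnar-/- and 10.2% (9.02 to 11.5) of Ifnar+/- cells. Tags did not enter the naming. In this class the CD201 (Procr) tag had medians of 31 and 42, against 7 in lymphoid-primed-like cells of both libraries. The CD150 tag had 17 and 20, against 429.5 and 570 in megakaryocyte-like cells, and CD48 had 2010 and 2369. Slamf1, which encodes CD150 and is also on the marker list, was a leading gene of an unnamed cluster, not of this one. The CD201 tag thus went with the name, while the CD150 tag and Slamf1 went against it. HSC-like is a label for this RNA cluster, which is not shown to hold stem cells. Lymphoid-primed-like cells were 13.4% and 14%, and megakaryocyte-like progenitors 6.44% and 5.72%, with overlapping intervals. The size of these classes depended on the clustering. Clustered without marked doublets, they were 7.07% and 5.94% and 2.9% and 2.88%. The 5 other clusters, 33.1% and 31.6% of cells, met no naming rule. Within Y-linked cells the erythroid shares were 24.9% and 17.2%, and within Xist cells 20.4% and 16%. The monocyte-like shares were 4.35% and 7.83% in Y-linked and 4.9% and 7.4% in Xist cells. The neutrophil-like shares were 7.59% and 9.86% in Y-linked and 7.17% and 8.59% in Xist cells. The basophil- and mast-like shares were 2.39% and 4.37% in Y-linked cells and lay closer in Xist cells, at 2.72% and 3.17%. How much such shares vary between litters or sorts cannot be read from 1 library a side.

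**Figure D3:**
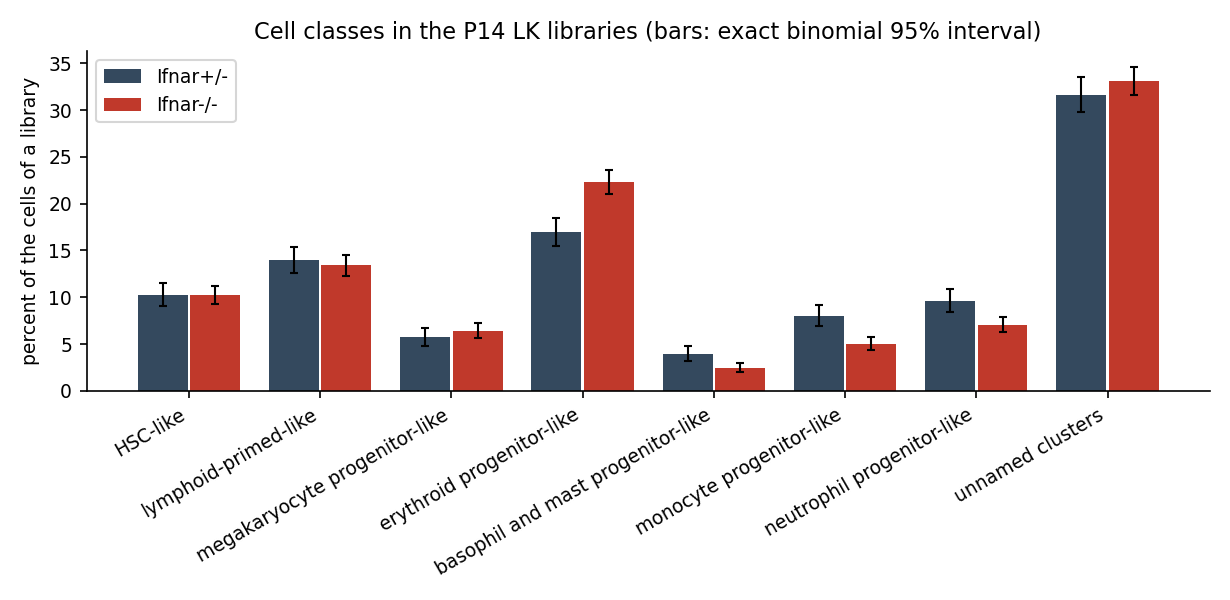
Share of cells (percent) in each class of P14 LK cells in the Ifnar-/- and the Ifnar+/- library, with exact 95% intervals that cover counting error only. The erythroid-like share was 22.3% in Ifnar-/- and 17% in Ifnar+/- cells, the monocyte-like share 5.05% and 8%, and the HSC-like share 10.2% in both.

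Some sets of genes tied to these classes differed in the direction of the shares and others did not. The markers of monocyte progenitors summed to 92.2 CPM in Ifnar-/- against 151 CPM in Ifnar+/- cells, those of neutrophil progenitors to 3217.1 and 4278.6 CPM and those of erythroid progenitors to 1991.1 and 1645.9 CPM. All 10 primary granule genes, such as the proteases of immature neutrophils, were lower, with a median of -0.32, which became 0.02 with the classes weighted. Of 11 genes of haem synthesis and iron uptake 10 were higher, with a median of 0.22, and 0.09 with the classes weighted. The 4 haemoglobin chains read were all lower in all cells (median -0.10, and -0.31 with the classes weighted), but 3 of 4 were higher in cells with Y-linked UMI (0.23) and 1 of 4 in cells with Xist UMI (-0.25). Of 8 secondary granule genes 5 were lower and 3 higher (median -0.13, and 0.30 with the classes weighted), with medians of -0.71 in Y-linked cells and 0.56 in Xist cells. A sum over a library cannot tell fewer cells of a type from less RNA per cell. Within the neutrophil-like class, Mpo stood at 5267.1 CPM in Ifnar-/- against 5075.0 CPM in Ifnar+/- cells and Elane at 4459.8 and 4175.1 CPM, and within the erythroid-like class Klf1 stood at 196 and 186 CPM.

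The interferon genes, by contrast, were lower within each group of cells read. These were 10 in all, the named classes and unnamed clusters that reached 100 cells in each library. The minimum left out the basophil- and mast-like cells. It also left out an unnamed cluster of 87 Ifnar-/- and 61 Ifnar+/- cells, whose first leading gene was Ifi27l2a. Within them the median over the list genes with at least 20 UMI lay between -0.61 and -0.18. It was -0.61 in the lymphoid-primed-like (73 of 76 genes lower), -0.53 in the HSC-like (69 of 75) and -0.51 in the erythroid-like cells (60 of 64). Over all genes with at least 50 UMI in the same classes and clusters, the medians lay between -0.03 and 0.02. The interferon median was closer to 0 in the monocyte-like (-0.30, 43 of 55), megakaryocyte-like (-0.22, 48 of 57) and neutrophil-like cells (-0.18, 44 of 53). These lists include genes that reached 20 UMI in the class through the Ifnar+/- library alone, which favours lower values. Over genes that reached it in both libraries, the medians were -0.52 (62 of 65 lower) in the lymphoid-primed-like, -0.46 (57 of 63) in the HSC-like and -0.46 (51 of 54) in the erythroid-like cells. In the monocyte-, megakaryocyte- and neutrophil-like cells they were -0.27 (38 of 49), -0.21 (40 of 48) and -0.18 (40 of 49). With 5 CPM added in place of 0.5 counts, the erythroid-like median over the full list moved from -0.51 to -0.27 and the monocyte-like one from -0.30 to -0.17, while the HSC-like one was -0.46. At a clustering resolution of 0.5 the megakaryocyte-like median was -0.37 in place of -0.22. Giving both libraries the same mix of classes, by the weighting above, gave -0.60 for all cells. The list genes that reached 20 UMI differed from class to class, so these medians are over different sets of genes. The difference between classes was not tested.

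**Figure D4:**
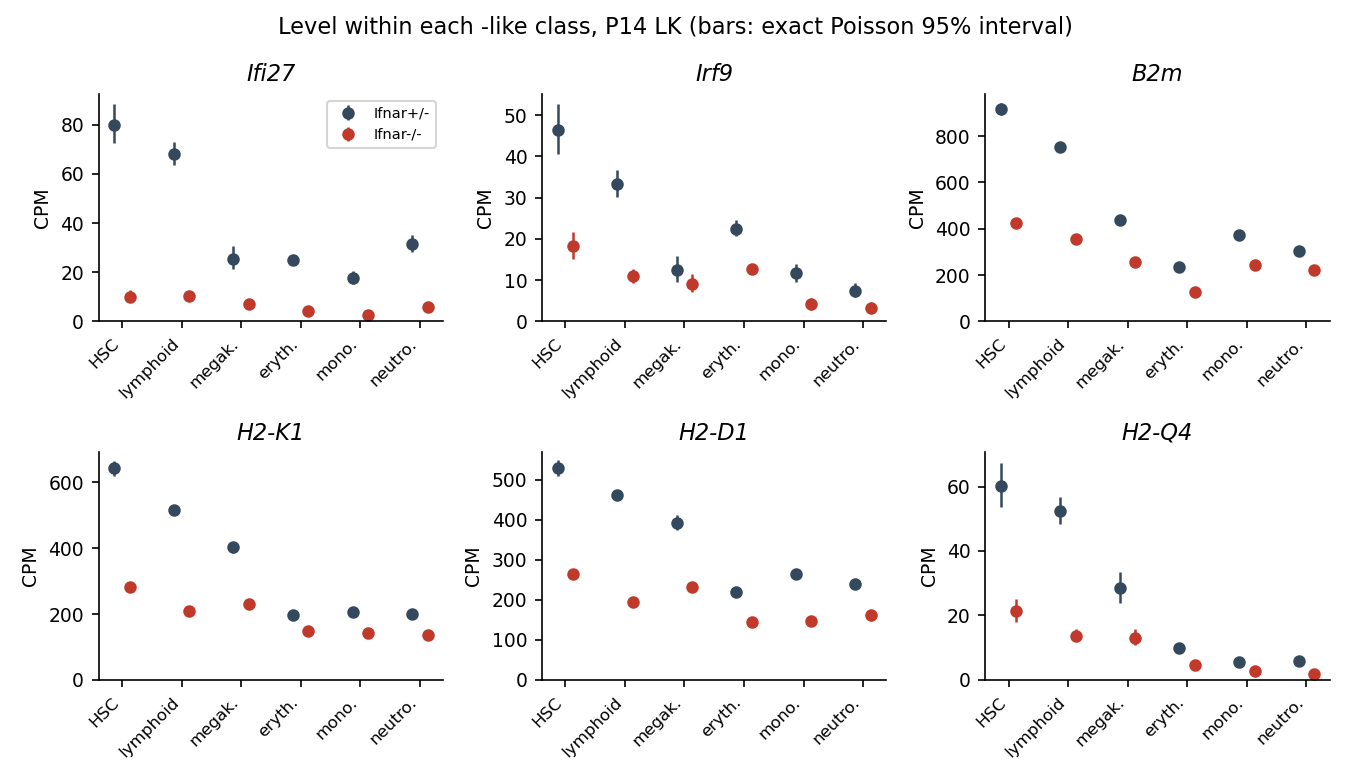
Level (CPM) of Ifi27, Irf9, B2m, H2-K1, H2-D1 and H2-Q4 within each class of P14 LK cells, in the Ifnar+/- (dark) and the Ifnar-/- (red) library, with bars for exact Poisson 95% intervals. Each gene was lower in Ifnar-/- in all 6 classes, with overlapping intervals for Irf9 in megakaryocyte-like cells and touching ones for H2-Q4 in monocyte-like cells. In Ifnar+/- cells each gene was highest in the HSC-like class.

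The control level of these genes differed by class. In Ifnar+/- cells Rtp4 stood at 31.2 CPM (26.5 to 36.5) in HSC-like, 27.7 CPM (24.8 to 30.9) in lymphoid-primed-like, 5.49 CPM in megakaryocyte-like and 1.91 CPM in erythroid-like cells. In Ifnar-/- cells the same classes held 2.3, 2.21, 0.124 and 0.0381 CPM. The megakaryocyte- and erythroid-like values rest on very few UMI. At full depth Rtp4 was seen in 0.4% and 0.231% of these Ifnar-/- cells, against 12.3% and 9.05% of the Ifnar+/- cells. Rtp4 was therefore highest in the immature classes of the control and lower in each of these classes in Ifnar-/-. Ifi27 was spread more evenly, at 80.1 CPM in HSC-like, 68.3 in lymphoid-primed-like, 31.7 in neutrophil-like, 25.6 in megakaryocyte-like, 25.1 in erythroid-like and 17.6 CPM in monocyte-like Ifnar+/- cells. In Ifnar-/- cells Ifi27 stood between 2.75 CPM in monocyte-like and 10.5 CPM in lymphoid-primed-like cells, so that the classes lay closer together.

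B2m stood at 424 CPM (409 to 440) in Ifnar-/- and 916 CPM (890 to 943) in Ifnar+/- HSC-like cells (-1.11). In neutrophil-like cells B2m stood at 220 CPM (211 to 228) and 304 CPM (293 to 314), a log2 ratio of -0.47. H2-K1 stood at 281 and 642 CPM in HSC-like and at 209 and 517 CPM in lymphoid-primed-like cells, against 137 and 199 CPM in neutrophil-like and 147 and 198 CPM in erythroid-like cells. Both genes were thus highest in the HSC-like of the named classes in both genotypes and lower in Ifnar-/- in each class. Irf9 stood at 18.2 and 46.3 CPM in HSC-like and 10.9 and 33.4 CPM in lymphoid-primed-like cells, and at 9.16 and 12.4 CPM in megakaryocyte-like cells. Ly6a was highest in the HSC-like class, at 36.9 CPM (32.5 to 41.7) in Ifnar-/- and 78.9 CPM (71.3 to 87.2) in Ifnar+/- cells, and in lymphoid-primed-like cells at 16.9 and 30.3 CPM. The 8 lymphoid-primed markers were split over all cells, with Flt3 (-0.23), Satb1 (-0.28), Ighm (-0.17) and Notch1 (-0.16) lower and Dntt (0.16), Il7r (0.67), Rag1 (0.71) and Ly6d (1.23) higher.

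Single cells were compared after each was thinned to 7500 UMI, so that depth was equal. The median count over the interferon list was 13 UMI (quartiles 9 and 19) in Ifnar-/- and 16 UMI (11 and 24) in Ifnar+/- cells, a ratio of 0.812. The medians were 26 and 34 UMI in HSC-like, 18 and 25 in lymphoid-primed-like and 8 and 10 in erythroid-like cells, and 14 in both megakaryocyte-like groups. In the 96 and 94 basophil- and mast-like cells the medians were 20 and 22. The mean of that class was higher in Ifnar-/- cells, at 30.9 against 28.8 UMI. The distributions overlapped widely. The 25 list genes at least 2-fold lower, which were chosen from these same cells, gave at least 1 UMI in 23% (21.6 to 24.3) of Ifnar-/- and 54.4% (52.4 to 56.4) of Ifnar+/- cells. In HSC-like cells the shares were 49% (44 to 54) and 83.3% (78.1 to 87.8).

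Rtp4 was seen in 0.515% (0.315 to 0.794) of Ifnar-/- and 6.18% (5.25 to 7.22) of Ifnar+/- cells after thinning, and in 1.6% and 16.3% before it. In Ifnar+/- cells it reached 14.2% in HSC-like and 17.5% in lymphoid-primed-like cells but 0 of 232 neutrophil-like cells, where 3 counts taken for the 0 allow up to 1.29% of cells with a UMI at the thinned depth and the exact interval reaches 1.58%. Before thinning the shares in these classes were 34.1%, 39.8% and 2.16%. RNA outside cells held the 25 genes at 139 CPM in the Ifnar+/- library, close to their 137 CPM in cells. In the Ifnar-/- library it held them at 41.3 CPM, above their 32.2 CPM in cells. Xaf1 gave 61 of the 172 UMI behind that 41.3 CPM. Ly6a was seen in 24.6% of Ifnar-/- and 41.1% of Ifnar+/- HSC-like cells.

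Over all cells, the cell cycle and stress gene lists had medians nearer to 0 than the interferon list. At least 10 UMI of 20 G2M genes were counted in 47.7% (46.1 to 49.3) of Ifnar-/- and 48% (46 to 50) of Ifnar+/- cells after thinning. By class the shares were 1.26% and 2.03% in HSC-like, 68.1% and 71.1% in erythroid-like and 60.3% (56 to 64.5) and 66.5% (61.2 to 71.5) in lymphoid-primed-like cells, with overlapping intervals in each class. By summed level within a class, all 20 G2M genes were lower in lymphoid-primed-like cells (median -0.20) and 14 of 18 in HSC-like cells (-0.23). In the unnamed cluster led by Cd244a and Ccl9, 19 of 20 were higher (0.27). The G2M median over all cells was -0.03. The median log2 ratio was 0.05 over 20 G1/S genes, 0.08 over 12 p53 targets, -0.04 over 14 NF-kB targets and 0.15 over 14 genes of the integrated stress response. The 12 immediate early genes, which respond to stimulation and to cell handling, had a median of -0.19 with 11 lower, which was -0.36 with all 12 lower in cells with Y-linked UMI and -0.01 with 7 lower in cells with Xist UMI. The 7 heat shock genes had a median of 0.25 with 6 higher, and 0.28 and 0.15 in the Y-linked and Xist cells. In those cells the G2M median was 0.08 and -0.07, that of the p53 targets -0.11 and 0.07 and that of the NF-kB targets -0.16 and 0.01. None of these lists kept its sign. The G1/S median was 0.09 and -0.00, and that of the integrated stress response 0.09 and 0.23. Over all cells, no gene of these lists was at least 2-fold lower, and 2 heat shock genes were at least 2-fold higher. Of these Hspa1b rested on 59 and 12 UMI. Within classes the interferon list was not always the furthest from 0. In megakaryocyte-like cells the immediate early median was -0.30 with all 12 lower, against -0.22 for the interferon list. In neutrophil-like cells the integrated stress response median was 0.24 with all 7 higher, against -0.18 for the interferon list.

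Antibody tags were read as a share of all tag UMI and as counts per cell. None of the 10 tags differed by 1.5-fold in share. The median count per cell was 6087 tags in Ifnar-/- and 7447 in Ifnar+/- cells, and the medians of single tags were lower in Ifnar-/- for 6 tags, equal for 2 and higher for 2. The lowest share ratio was 0.699, for the row named SA_PE, whose target the files do not give, at 28 and 42 counts per cell. In HSC-like cells SA_PE stood at 729 counts in Ifnar-/- and 1388.5 in Ifnar+/- cells, and in lymphoid-primed-like cells at 470 and 849, while in monocyte-like cells it was 11 in both. CD16_32, the Fc gamma receptors of myeloid progenitors, had a ratio of 0.777, with medians of 29 and 45. CD34 had 0.85, with 101 and 156, and CD127, the interleukin 7 receptor, 1.39, with 3 counts in both. The remaining tags CD150, CD48, CD135, CD117, CD41 and CD201 had share ratios between 0.998 and 1.18.

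The same genotype comparison in the other fractions of the series shares no library with P14 LK. Whether the P14 LK and P14 LSK cells came from the same mice is not given. The log2 ratios of the sex genes ran from -0.85 to 0.78 in P14 LK and from -0.67 to 0.77 in P14 LSK. They ran from -0.58 to -0.00 in P0 LK and from -0.47 to 0.61 in P0 LSK. The P14 LSK pair is therefore not shown to be an independent repeat. The interferon list median was -0.62 in P14 LK, -0.54 in P14 LSK, -1.96 in P0 LK and -1.34 in P0 LSK, and the medians of all genes were -0.03, 0.01, -0.03 and 0.16. These medians include genes that reached 20 UMI through the Ifnar+/- library alone and so favour lower values, 6 in P14 LK, 7 in P14 LSK, 18 in P0 LK and 14 in P0 LSK. Over genes that reached it in both libraries of a pair, the medians were -0.59 (75 of 78 lower), -0.46 (80 of 82), -1.57 (70 of 73) and -1.16 (73 of 77). The difference between pairs was not tested. For antiviral effectors, with 15 genes read in P14 LK and 19 in each of the other pairs, the medians of -0.47, -1.81, -4.25 and -3.59 became -0.46, -0.97, -1.52 and -2.39 over the 14, 15, 12 and 15 genes read in both libraries. For MHC class I genes the medians were -0.34, -0.48, -0.53 and -0.83, and -0.33, -0.48, -0.42 and -0.76 over the genes read in both libraries. The 25 called interferon genes summed to 137 CPM in Ifnar+/- LK cells at P14 and 380 CPM at P0, and to 32.2 and 19.3 CPM in the Ifnar-/- cells. They were chosen from the P14 LK pair, so the difference within that pair is a description.

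**Figure D5:**
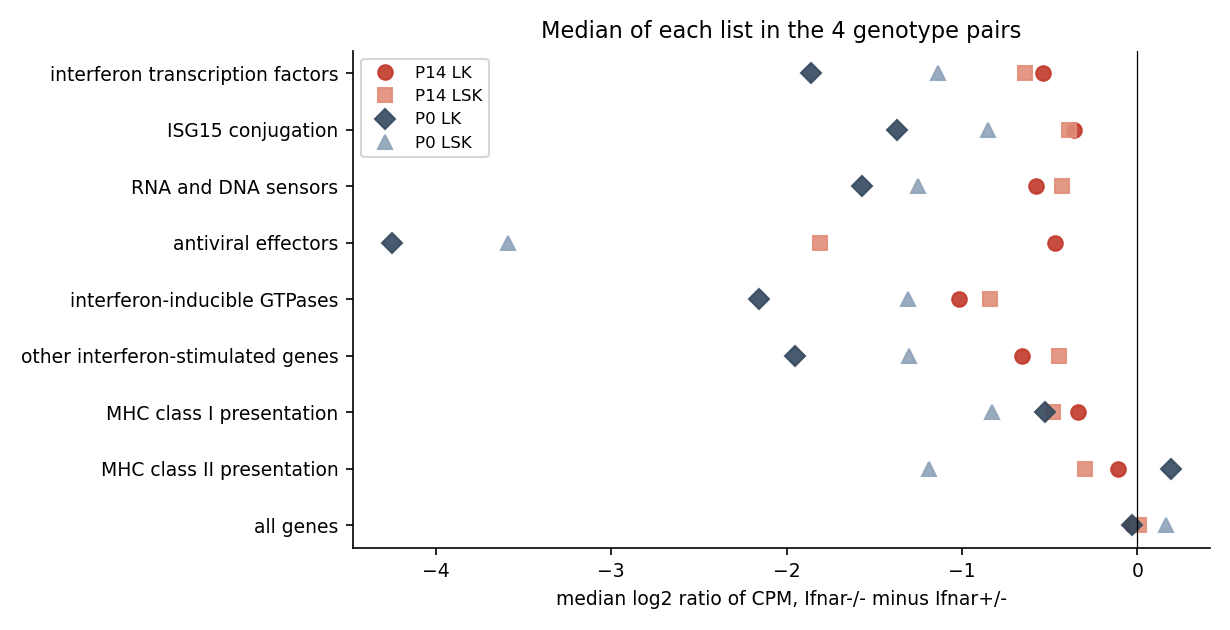
Median log2 ratio (Ifnar-/- minus Ifnar+/-) of gene lists in the 4 library pairs, P14 LK, P14 LSK, P0 LK and P0 LSK. The antiviral effectors stood at -0.47, -1.81, -4.25 and -3.59 in that order, and all genes at -0.03, 0.01, -0.03 and 0.16. The medians drawn include genes read through the Ifnar+/- library alone. Over the effectors read in both libraries of a pair, the medians were -0.46, -0.97, -1.52 and -2.39.

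Of the 66 genes at least 2-fold lower in P14 LK, 40 also had at least 50 UMI in 1 or both libraries and a 2-fold lower level in P14 LSK, 36 in P0 LK and 46 in P0 LSK. Over all genes with that count in those pairs, 0.54%, 1.15% and 2.26% were that much lower. Of the 26 higher genes, 4, 2 and 7 were at least 2-fold higher there, against 0.133%, 0.171% and 4.52% of all genes, so the counts of the 3 pairs are not comparable. Wdfy1 was lower in P14 LSK as well, at 14.7 CPM in Ifnar-/- against 29.4 CPM in Ifnar+/- cells, and near level at P0 (log2 -0.02 in LK and 0.20 in LSK). Tuba4a was higher at P14 (0.65 in LK and 0.51 in LSK), with 0.08 and -0.27 at P0. Rtp4 was lower in all 4 pairs, at -4.11, -3.46, -7.64 and -6.88.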

How the data were processed

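The authors deposited counts, namely raw UMI per feature and barcode for every barcode, over 32285 genes and 10 antibody tags, with no cell filter or normalization. The libraries were 10x Genomics 3′ libraries, per the labels' protocols. The matrices name Cell Ranger 4, per the file headers, while Cell Ranger 6.0.1 and mm10 are named per the submitters' processing notes; the annotation release is not given in the sources used here. Samples were grouped by the genotype, sort and age in the labels.

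From the counts, cells were kept at 7500 or more gene UMI and at most 10% mitochondrial UMI. UMI were summed per library and scaled to CPM, and log2 ratios were taken with 0.5 counts added. Genes with at least 50 UMI in 1 or both libraries were called at a 2-fold difference, and gene lists used at least 20 UMI. The step was tested on simulated counts that held counting error alone and planted folds above the limit. That test does not cover variation between cells or libraries, nor genes at the 2-fold limit. Intervals are exact Poisson for CPM and exact Clopper-Pearson for shares, at 95%. UMI are molecules, so PCR copies do not enter them. The depth per cell is high, so abundant genes have narrow counting intervals and genes with a few UMI wide ones.

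Cells were clustered with scanpy 1.11.5 on 2000 variable genes, 30 components, 15 neighbours and Leiden resolution 1 (igraph 0.11.9). A cluster took the class of its highest marker score where the score was at least 0.8 and at least 3 markers were detected in at least 10% of its cells, unless another class had more markers in its top 10 genes. The score of 0.8 was set after the clusters were seen. Scrublet marked 53 (1.36%) and 19 (0.788%) cells as doublets, which were kept, with their removal as an alternative. More cells, 465 and 290, carried both Y-linked and Xist UMI, and whether these were doublets or held free RNA was not tested. Normalization by edgeR 4.0.16 (TMM) was an alternative only. Named genes were Ifnar1, Ifnar2, Kit, Ly6a, the 15 lower and 15 higher genes of largest ratio above 5 CPM without sex genes, and, of each list, the 4 most abundant and the 4 of largest ratio. C1qa, C1qb, C1qc, Epx, the other cell type markers, genes named within classes and those of the glucocorticoid and clock lists were chosen outside that rule, after their values were seen. The members and lists were chosen with earlier results of these data known. No promoter or protein sequences are shown. Some genes that the rule names are not reported here.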

Additional observations from a re-analysis of the deposited data

Results flagged for a closer look

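In 5 genes the P14 LK ratio and that of another pair, each at least 2-fold, had opposite signs; each pair is 1 library a side and the difference was not tested. Cstdc5, at -3.77 in P14 LK (36 and 332 UMI in Ifnar-/- and Ifnar+/-), stood at 5.04 in P0 LSK (696 and 27 UMI). Stfa1, of the same stefin family, stood at -2.15 in P14 LK and 5.74 in P0 LSK. Most of the Ifnar+/- UMI of both in P14 LK came from 1 cell, with 300 of 332 and 347 of 427 UMI. Gm17657 stood at -2.43 in P14 LK and 1.07 in P0 LSK, and Lrrn3 at -1.07 and 1.53. Cma1, a mast cell chymase, stood at 2.59 in P14 LK (58 and 6 UMI) and -5.52 in P14 LSK (8 and 408 UMI). In P14 LK, 5 cells held all 58 Ifnar-/- UMI of Cma1. The top 5 Ifnar+/- cells held 79.8% of the UMI of Gm17657 and 23.5% of those of Lrrn3.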

How the results depend on the processing

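The interferon and MHC class I medians stayed below 0 under each alternative run. The erythroid-, monocyte-, neutrophil- and basophil- and mast-like share differences kept their sign under each as well. Those of the HSC-, lymphoid-primed- and megakaryocyte-like cells, near 0, did not. For genes, gene lists and tags, the alternative limit of 5% mitochondrial UMI removed no cell as it was applied. That alternative therefore could not change them, while for the class shares it did remove cells. Of 34 named genes, S100a9 (-2.02) and Trbc1 (-0.54) changed sign, in Y-linked cells. No paired analysis was possible because the labels give each group 1 library. Settings that left out a replicate do not apply for the same reason. The 66 lower genes became 108 in cells with Y-linked UMI alone, 43 in Xist cells, 4 with 5 CPM added in place of 0.5 counts, 284 with a minimum of 10 UMI, 27 with 200 UMI and 313 at 1.5-fold. The 26 higher genes became 17 in Y-linked cells, 0 with 5 CPM added, 177 with 10 UMI, 8 with 200 UMI and 103 at 1.5-fold. The interferon list median of -0.62 became -0.29 with 5 CPM added and -0.49 with 200 UMI. The difference in share was -1.66 points for HSC-like cells at 15000 or more UMI. For basophil- and mast-like cells it was -0.448 in Xist cells and -2.66 with no gene left out of clustering. At that last setting the class held 14.2% and 16.8% of cells, against 2.47% and 3.9% in the main run, so it was a larger class. The difference was 7.75 for erythroid-like cells in Y-linked cells, and -2.48 for lymphoid-primed-like cells in Xist cells. The ratio of interferon UMI per cell was 0.729 without thinning. Tags 1.5-fold apart numbered 3 by median per cell (CD16_32, CD34 and SA_PE), 1 at 15000 or more UMI (SA_PE) and 3 at a lower fold limit (CD16_32, CD127 and SA_PE). The cause of each change was not tested; fewer cells or another count minimum enter by construction. HSC-like and monocyte-like classes were not found at resolution 0.5, nor the lymphoid-primed-like class with no gene left out. Naming scores of 0.5 and 1 were added after the data were seen. Both scalings by TMM and by the median of ratios moved all genes by 0.04.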

Other observations

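A list of 8 genes known to respond to glucocorticoids was gathered after Klf9 and Mt2 had been seen among the higher genes, so its direction is a description. Its median log2 ratio was 0.46, with 6 genes higher and 2 lower, and 0.28 with the classes weighted, against -0.03 over all genes. It was 0.62 in cells with Y-linked UMI and 0.16 in cells with Xist UMI. Mt2, a metal-binding metallothionein, had a log2 ratio of 1.17 in the Y-linked and 0.18 in the Xist cells, and Klf9, a transcription factor, at 0.85 and 0.70. Tsc22d3, the glucocorticoid-induced leucine zipper, stood at 41.3 CPM (40.3 to 42.3) in Ifnar-/- and 30.8 CPM (29.7 to 31.9) in Ifnar+/- cells, and Mt1 at 302 and 214 CPM. Ddit4, an inhibitor of the growth kinase mTOR, stood at 6.96 and 4.68 CPM and Fkbp5, a chaperone of the glucocorticoid receptor, at 38.5 and 36 CPM. Sgk1 and Zbtb16 ran the other way, at 1.49 and 1.99 CPM and at 5.97 and 6.98 CPM. The list median was 0.38 in P14 LSK, -0.08 in P0 LK and 0.45 in P0 LSK. A list of 14 clock genes read because of Per1 had a median of -0.02, with 8 lower and 6 higher. No cause of these values was tested.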
